A study of Mus musculus with 12 samples.

Results

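The PFKFB family is a set of 4 genes, Pfkfb1, Pfkfb2, Pfkfb3 and Pfkfb4, of the 47730 features measured. Its members were taken by gene symbol, and the family was chosen on the level of Pfkfb3, which an earlier look at these data had found lower in mutant than in wild-type skeletal muscle. The genotype values in muscle are therefore a description with no test. The values in testis did not choose the members, while the comparisons between the tissues include the muscle values that did. RNA was sequenced from muscle and testis of 7 male mice aged 5 to 6 months, in 12 libraries that formed 4 groups of 3. The mutant mice carried the altered Bckdk allele on both chromosomes (BckdkM/M, titled KO), and the wild-type mice were Bckdk+/+. The Bckdk protein is a kinase that inactivates branched-chain ketoacid dehydrogenase. All mice, mutant and wild type, were on C57BL/6J after at least 10 generations of backcrossing, ate rodent chow at will and were killed between ZT6 and ZT7, the middle of the light phase. The muscle sample held gastrocnemius with plantaris, and the testis sample was whole tissue. Letters stand for the mouse numbers in the column names. Mutant muscle came from mice D, F and G and wild-type muscle from A, B and C, while the testis libraries labelled mutant came from D, E and F and wild-type testis from A, B and C.

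Each PFKFB enzyme is a single protein with a kinase domain that makes fructose 2,6-bisphosphate from fructose 6-phosphate and a phosphatase domain that removes it again. Fructose 2,6-bisphosphate switches on phosphofructokinase, the enzyme that commits sugar to glycolysis, and restrains fructose bisphosphatase, which runs the step backwards. Pfkfb1 gives the liver and muscle isozyme, Pfkfb2 the heart isozyme, Pfkfb3 an inducible isozyme in which the kinase far outweighs the phosphatase, and Pfkfb4 the isozyme first described in testis. Oxygen shortage is known to raise Pfkfb3 and Pfkfb4 through hypoxia-inducible factor, and AMP-activated kinase and AKT are known to phosphorylate the heart and inducible isozymes.

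The genes lie on 4 chromosomes of GRCm38, at chrX:150588229-150643878 on the plus strand (Pfkfb1, ENSMUSG00000025271), chr1:130689182-130729253 on the minus strand (Pfkfb2, ENSMUSG00000026409), chr2:11471433-11554077 on the minus strand (Pfkfb3, ENSMUSG00000026773) and chr9:108991778-109032228 on the plus strand (Pfkfb4, ENSMUSG00000025648). GENCODE M21 gives them 7, 13, 21 and 10 transcripts in that order, whose merged exons cover 4017, 7254, 7561 and 4875 bases. Pfkfb1 shares 123 exon bases with Apex2 on the other strand, and Pfkfb2 shares 154 with Yod1 on the other strand and 1262 with the predicted gene Gm29427 on its own. How strand was treated in counting is not stated in the sources used here, so reads from these stretches cannot be told apart, and the values of Pfkfb1 and Pfkfb2 are uncertain to that extent. Exons of Pfkfb3 and Pfkfb4 share no bases with another annotated gene.

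The promoter windows of Pfkfb3 and Pfkfb4 are shown because these are the members known as targets of hypoxia-inducible factor and the ones whose 3 mutant muscle values all lay below the wild-type values. RefSeq (GRCm38.p6) gives Pfkfb3 2 annotated starts and Pfkfb4 1. Each window runs from 250 bases before to 50 bases after a start, 5′ to 3′ on the gene's strand, and capitals mark the letters ACGTG and GCGTG, the core to which hypoxia-inducible factor binds, on either strand. The Pfkfb3 windows are at chr2:11553880-11554179 (upstream start) and chr2:11502041-11502340 (downstream start), both on the minus strand, and the Pfkfb4 window is at chr9:108991652-108991951 on the plus strand.
Pfkfb3 upstream start: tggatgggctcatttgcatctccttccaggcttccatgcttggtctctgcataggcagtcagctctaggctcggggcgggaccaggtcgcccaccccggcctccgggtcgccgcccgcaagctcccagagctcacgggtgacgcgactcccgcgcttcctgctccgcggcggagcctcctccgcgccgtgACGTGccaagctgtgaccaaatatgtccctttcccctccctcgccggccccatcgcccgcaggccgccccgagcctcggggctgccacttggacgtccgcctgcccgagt
Pfkfb3 downstream start: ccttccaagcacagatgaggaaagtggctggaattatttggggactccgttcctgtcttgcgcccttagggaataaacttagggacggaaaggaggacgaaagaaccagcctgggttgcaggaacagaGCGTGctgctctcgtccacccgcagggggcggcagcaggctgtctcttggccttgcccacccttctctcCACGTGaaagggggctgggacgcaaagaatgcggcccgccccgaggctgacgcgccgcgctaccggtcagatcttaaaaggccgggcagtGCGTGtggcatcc
Pfkfb4: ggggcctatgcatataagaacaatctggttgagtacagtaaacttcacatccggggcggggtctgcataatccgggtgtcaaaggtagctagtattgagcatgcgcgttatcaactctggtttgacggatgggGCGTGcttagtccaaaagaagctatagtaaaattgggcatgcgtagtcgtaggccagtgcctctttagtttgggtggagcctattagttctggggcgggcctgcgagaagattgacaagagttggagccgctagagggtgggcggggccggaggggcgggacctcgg
The upstream Pfkfb3 window held 1 ACGTG, 60 bases before the start, and no GCGTG. The downstream Pfkfb3 window held the palindrome CACGTG 53 bases before the start, which contains ACGTG on each strand, and GCGTG at 2 places. The Pfkfb4 window held 1 GCGTG, 117 bases before the start, and no ACGTG. Among the other members, ACGTG was in 2 of 3 Pfkfb2 windows and in none of the 4 of Pfkfb1, and GCGTG was in 2 of 3 and 1 of 4. The 2 Pfkfb2 windows with GCGTG overlap in part, and the 2 with ACGTG do not overlap. On either strand, 19.6% of all 32851 RefSeq promoter windows held ACGTG, 32.4% held GCGTG and 7.15% held CACGTG. These matches describe the letters and do not show binding.

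Library depth was 12852427 to 15795722 reads, recovered from the deposited normalised counts. Bckdk had 14.8, 14.3 and 12.4 normalised counts in mutant muscle D, F and G, against 2214, 2421 and 2627 in wild-type muscle A to C. In the testis libraries labelled mutant it was not lower, at 138, 119 and 114 in D, E and F, against 68.0, 73.3 and 71.0 in wild-type A to C, so these are called by their label. NeoR, a feature with the name of a selection cassette, had 208 to 266 in mutant muscle against 2.28 to 3.85 in wild-type muscle, and 13.1 to 19.9 in testis labelled mutant against 1.76 to 3.34 in wild-type testis. The muscle libraries of mice F and G stood apart. Transcripts of 12 pancreatic islet genes summed to 32394 and 30543 normalised counts there, against 13615 in mutant D and 13487 to 15744 in wild-type muscle, and in testis the sum was 19246 and 19069 in wild-type A and B against 10430 to 13604 in the others. Muscle G also had 11.5% of reads on mitochondrial genes, against 7.65% to 8.21% in the other muscle libraries. Markers of skeletal muscle fibres and of spermatids were high in the libraries of their own tissue, but not every marker list set the tissues apart. Slow-fibre genes summed to 616 to 6295 in wild-type muscle and 1239 to 1447 in wild-type testis. Spermatogonia genes summed to 843 to 1049 in wild-type muscle and 1167 to 1205 in wild-type testis. Genes of skeletal muscle fibres summed in testis to at most 0.627% of the wild-type muscle mean, and spermatid genes in muscle to at most 1.52% of the wild-type testis mean.

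Pfkfb3 was lower in every mutant muscle library than in every wild-type one. It had 10926, 7306 and 8660 normalised counts in mutant muscle D, F and G, against 12181, 20223 and 16520 in wild-type muscle A to C. The means were 8964 ± 1829 and 16308 ± 4025 (SD, n = 3 each), so that mutant muscle had 55.0% of the wild-type level on average, a log2 difference of -0.85 (SE 0.22) on log2(normalised count + 1). The highest mutant library, D, and the lowest wild-type library, A, differed by only 0.16 on the log2 scale, so the groups were close at their edges. In bulk tissue, fewer cells of a type and less RNA per cell cannot be told apart.

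Pfkfb4 was also lower in all 3 mutant muscle libraries, by less. It had 825, 680 and 528 normalised counts in mutant D, F and G, against 906, 875 and 1005 in wild-type A to C, a log2 difference of -0.48 (SE 0.17). Mutant D lay just under wild-type B, and G was the lowest. Without the muscle libraries of mice F and G, chosen for removal after the data had been examined, mutant D alone gave -0.17 for Pfkfb4 and -0.55 for Pfkfb3.

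Pfkfb1 and Pfkfb2 overlapped between the genotypes in muscle. Pfkfb1 had 685, 501 and 585 normalised counts in mutant D, F and G, against 616, 860 and 770 in wild-type A to C, a log2 difference of -0.34 (SE 0.17). Pfkfb2 had 244, 248 and 200 in the mutants, against 175, 239 and 209 in the wild types, a log2 difference of 0.15 (SE 0.18). Mutant D was above wild-type A for Pfkfb1, and mutants D and F were the highest of the 6 for Pfkfb2, just above wild-type B.

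The limma fit over 16246 genes called 6 of them in muscle, 0.0369%, at an adjusted p below 0.05, and 0 of the 4 members. Members with an unadjusted p below 0.05 numbered 2, Pfkfb3 and Pfkfb4, as against 1546 genes in all. DESeq2 on the recovered reads called 34 genes, Pfkfb3 among them, and edgeR called 6 and none of the members. Without mutant D, limma called 497 genes and 1 member, Pfkfb3, from 2 mutant libraries that both had the larger islet sum. All mutant values were below all wild-type values for 2 of the 4 members, and the same held for 8.85% of the genes tested. Because Pfkfb3 in this comparison chose the family, nothing is read from these counts.

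**Figure D1:**
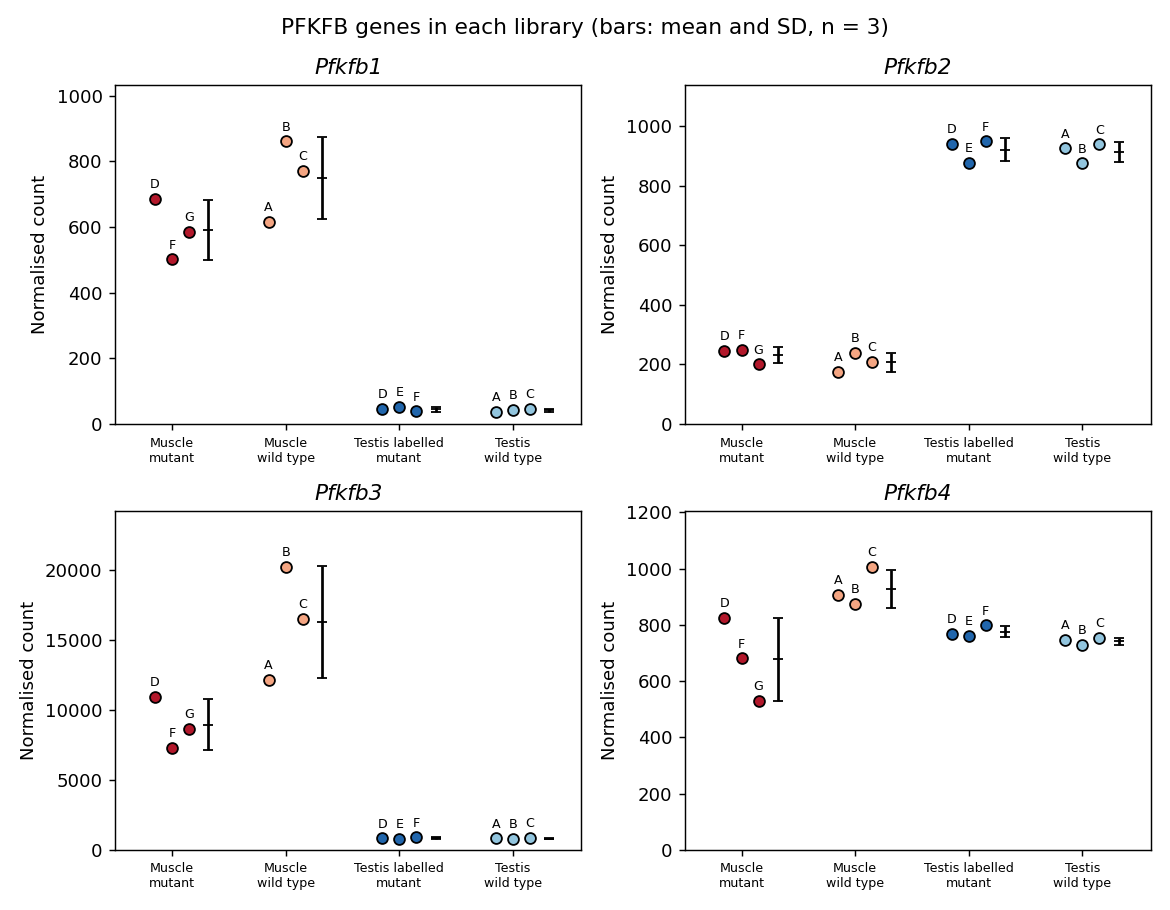
Normalised counts of the 4 PFKFB genes in each library, with letters for the mice and bars for the mean and SD of 3 libraries; the vertical axes start at 0 and differ between genes. Pfkfb3 was at 7306 to 10926 in mutant muscle and 12181 to 20223 in wild-type muscle, and at 767 to 884 in the 6 testis libraries.

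Other cell markers moved between the same muscle libraries. Genes of skeletal muscle fibres (8 genes, fast-fibre myosins, Acta1 and Ckm among them, 1 higher and 7 lower by mean) summed to 101%, 84.3% and 61.35% of the wild-type muscle mean in mutant D, F and G, against 90.9%, 94.7% and 114% in wild-type A to C. Slow-fibre genes (7 of 7 higher by mean) summed to 4631 to 6427 normalised counts in mutant muscle and to 616, 6295 and 1430 in wild-type A to C, so wild-type B was at the mutant level while it had the highest Pfkfb3. Adipocyte genes (8 of 8 higher by mean) summed to 54375, 47857 and 125770 in mutant D, F and G, against 62067, 50545 and 19941 in wild-type A to C. Spermatid genes (8 of 8 lower by mean, median log2 difference -0.84) summed to 3356, 1434 and 953 in mutant D, F and G, against 2714, 2537 and 3210 in wild-type A to C, so F and G were lowest here as for Pfkfb3. Islet genes were higher by mean in 12 of 12, with the sums given above, and F and G, the libraries with the larger sum, were the ones with the lowest Pfkfb3. Red cell genes summed to 3629 to 6006 in mutant muscle and 2732 to 2871 in wild-type muscle, and tendon genes to 2333 to 3382 and 1585 to 2505. Endothelial sums overlapped, at 6697 to 7843 in mutant muscle and 6481 to 7620 in wild-type muscle. The part of these differences in the PFKFB values was not tested. None of the muscle-fibre, islet or adipocyte genes was at 0 in a muscle group, while of the testis markers Fshr was at 0 in all muscle libraries and Lhcgr in all 3 of mutant muscle.

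In testis no member differed with the label by more than its SE. Pfkfb3 had 819, 767 and 884 normalised counts in testis D, E and F labelled mutant, against 812, 768 and 833 in wild-type A to C. Pfkfb2 had 940, 876 and 948 in the libraries labelled mutant, against 925, 875 and 939 in wild-type testis. For both genes the libraries overlapped almost wholly. Pfkfb1, the scarcest member, had 45.4, 53.0 and 38.2 in the libraries labelled mutant, against 36.2, 43.3 and 45.9 in wild-type testis, again overlapping. Pfkfb4 had 768, 762 and 798 in the libraries labelled mutant, against 747, 728 and 752 in wild-type testis. Its groups did not overlap, by a gap of 0.02 on the log2 scale, as was true of 9.72% of the genes tested in this direction.

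With limma over 19543 genes, 4 genes were called in testis, 0.0205%, and 0 of the 4 members. None of the members had an unadjusted p below 0.05, which 1386 genes had, and neither edgeR nor DESeq2 called one. The log2 differences were 0.11 (SE 0.22, adjusted p = 0.932) for Pfkfb1, 0.01 (SE 0.07, adjusted p = 0.980) for Pfkfb2, 0.03 (SE 0.07, adjusted p = 0.949) for Pfkfb3 and 0.06 (SE 0.07, adjusted p = 0.867) for Pfkfb4. For Pfkfb2 and Pfkfb3 the sign turned under other scalings, and it turned for Pfkfb1, Pfkfb2 and Pfkfb3 without wild-type A and B, the testis libraries with more islet transcripts. Whether the genotype difference of a member itself differed between muscle and testis was not tested, since the muscle values chose the family. The p-values measure the spread between these libraries, which the column numbers give as separate mice within each group.

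**Figure D2:**
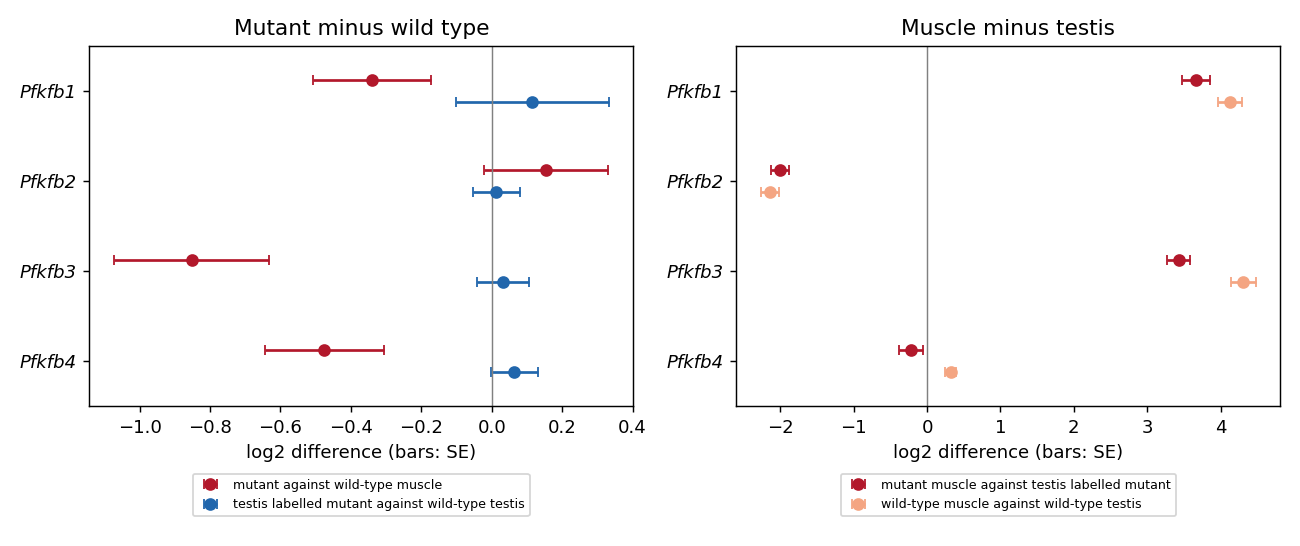
Log2 differences of the 4 members with their SE (horizontal axes), for mutant minus wild type in muscle and testis (left) and for muscle minus testis in the libraries labelled mutant and in wild-type mice (right). In muscle Pfkfb3 was at -0.85 and Pfkfb4 at -0.48, and in testis all members were between 0.01 and 0.11; between the tissues Pfkfb1 and Pfkfb3 lay far to the muscle side and Pfkfb2 to the testis side.

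Between the tissues each member had its own pattern, and for Pfkfb1, Pfkfb2 and Pfkfb3 the differences were larger than those between the genotypes. In wild-type mice, Pfkfb3 was 20.3-fold higher in muscle than in testis, at 16308 ± 4025 against 804 ± 33.0 normalised counts (SD, n = 3 each). Its log2 difference was 4.31 (SE 0.17, limma adjusted p = 6.45e-08). Pfkfb1 was 17.9-fold higher, at 749 ± 124 in muscle against 41.8 ± 5.05 in testis, a log2 difference of 4.12 (SE 0.17, limma adjusted p = 7.89e-08). Pfkfb2 ran the other way, at 208 ± 31.9 in muscle against 913 ± 33.7 in testis, a log2 difference of -2.14 (SE 0.12, limma adjusted p = 5.46e-07). Pfkfb4 was nearly level, at 929 ± 67.9 in muscle against 742 ± 12.8 in testis, a log2 difference of 0.32 (SE 0.08, limma adjusted p = 0.00465). Muscle and testis libraries did not overlap for any of the 4 members. All 4 were called, as were 87.9% of 19994 genes, 37.3% higher and 50.6% lower in muscle, so a call in this comparison is the usual result.

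In the mutant libraries, which the wild-type comparison did not use, Pfkfb1, Pfkfb2 and Pfkfb3 differed in the same direction. Mutant muscle against testis labelled mutant differed by 3.67 (SE 0.19, limma adjusted p = 7.41e-07) for Pfkfb1, by -2.0 (SE 0.12, adjusted p = 1.44e-06) for Pfkfb2 and by 3.43 (SE 0.15, adjusted p = 3.92e-07) for Pfkfb3, each on the log2 scale. The mean of Pfkfb3 was 8964 ± 1829 in mutant muscle against 823 ± 58.3 in testis labelled mutant (SD, n = 3 each), 10.9-fold higher. Pfkfb4 was 678 ± 148 in mutant muscle against 776 ± 19.4 in testis labelled mutant, and its libraries overlapped. Its log2 difference of -0.22 (SE 0.16, limma adjusted p = 0.228) had the opposite sign to that in wild-type mice and did not pass. Without mutant muscle D, which leaves F and G with the larger islet sum, it was -0.37 and passed (limma adjusted p = 0.0282). At -0.05 without mutant muscle G, -0.08 with TMM scaling and -0.03 with edgeR it was nearer to no difference and did not pass. In all, 3 of the 4 members were called, and 85.9% of 20021 genes, 36.3% higher and 49.7% lower in muscle. The muscle values that chose the family enter both tissue comparisons.

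Traces of muscle-fibre transcripts differed between the testis libraries. Wild-type testis B had a muscle-fibre sum of 0.00687% of the wild-type muscle mean, against 0.263% in A and 0.627% in C. Its Pfkfb3 was the lowest of the group, at 768 against 812 and 833. In testis D, E and F labelled mutant the sum was 0.619%, 0.552% and 0.573%. Pfkfb3 had 819, 767 and 884 there, so E was as low as wild-type B with a far larger muscle-fibre sum. The part of such traces in the testis values of the members was not tested. The median gene differed by -0.48 between muscle and testis in both comparisons, and scaling the 6 libraries anew by TMM moved that median to -0.31 in the wild-type comparison and -0.35 in the one of libraries labelled mutant, with every member that was called keeping its sign.

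Per length of exon, Pfkfb3 stood far above its relatives in muscle. It had 1186 ± 242 normalised counts per kb in mutant muscle and 2157 ± 532 in wild-type muscle (SD, n = 3 each). Pfkfb1 had 147 ± 23.0 in mutant muscle and 186 ± 30.8 in wild-type muscle, and Pfkfb4 139 ± 30.4 and 191 ± 13.9. These neighbours overlapped in both groups and cannot be put in order, and with the longest transcript in place of the merged exons Pfkfb1 had the higher mean. Pfkfb2 was the lowest, at 31.8 ± 3.66 per kb in mutant muscle and 28.7 ± 4.40 in wild-type muscle. Among all genes with a value, Pfkfb3 ranked 585th of 25646 per kb in mutant muscle and 305th of 25407 in wild-type muscle.

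In testis the order was different, with Pfkfb4, Pfkfb2 and Pfkfb3 near one another and Pfkfb1 far below them. Pfkfb4 had 159 ± 3.97 normalised counts per kb in testis labelled mutant and 152 ± 2.62 in wild-type testis. Pfkfb2 followed with 127 ± 5.47 and 126 ± 4.65, then Pfkfb3 with 109 ± 7.72 and 106 ± 4.37, and last Pfkfb1 with 11.3 ± 1.85 and 10.4 ± 1.26. The libraries of neighbours in this order did not overlap within either group. Pfkfb4, known as the testis isozyme, thus had the highest level of the family there per merged exon length, though its own level was much the same in muscle. Its lead over Pfkfb2 in wild-type testis was 1.21-fold, and 1.05-fold with the longest transcript. Because the Pfkfb2 value is uncertain by the exon bases shared with Gm29427 and Yod1, the order of Pfkfb4 and Pfkfb2 is not settled.

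As a share of the family per length, Pfkfb3 made up 79.5% in mutant muscle D, 76.4% in F and 80.3% in G, against 81.6%, 86.2% and 83.7% in wild-type muscle A to C. The Pfkfb3 shares did not overlap, but they rest on the muscle values that chose the family, so nothing is read from this. Shares add up to the whole family, so a lower share of Pfkfb3 means a higher one for the rest together. Pfkfb1, Pfkfb2 and Pfkfb4 had 9.82%, 2.16% and 9.31% on average in mutant muscle and 7.34%, 1.13% and 7.70% in wild-type muscle. The Pfkfb4 shares overlapped. Those of Pfkfb1 did not, at 9.38% to 10.2% in mutant and 6.91% to 7.76% in wild-type muscle. Nor did those of Pfkfb2, at 1.85% to 2.70% and 1.06% to 1.22%. All these shares contain the Pfkfb3 muscle values that chose the family. The normalised counts of Pfkfb1 and Pfkfb4 were lower by mean in mutant muscle. In testis Pfkfb3 made up 26.8% ± 0.94 in the libraries labelled mutant and 26.9% ± 0.32 in wild type (SD, n = 3 each). The sum of the family was 1503 ± 285 normalised counts per kb in mutant muscle, 2562 ± 565 in wild-type muscle, 406 ± 14.6 in testis labelled mutant and 395 ± 11.7 in wild-type testis.

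**Figure D3:**
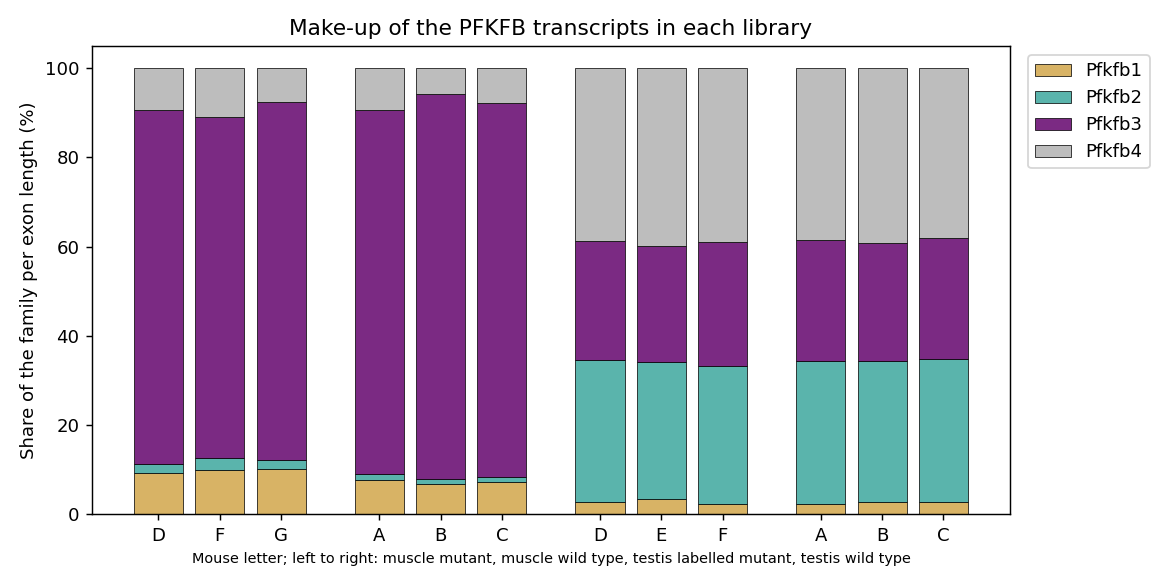
Share of each PFKFB gene (colours, %) in the family's summed normalised counts per kb of merged exon, 1 bar per library in the order mutant muscle, wild-type muscle, testis labelled mutant, wild-type testis. Pfkfb3 fills 76.4% to 86.2% of each muscle bar and 25.9% to 27.8% of each testis bar, where Pfkfb4 and Pfkfb2 take most of the rest.

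The enzymes that act on the same sugar phosphates and the known regulators of the family made 7 lists of 62 genes. Between the genotypes limma called 0 of these 62 in muscle and 0 of the 59 tested in testis, and edgeR and DESeq2 called none. Limma called only 0.0369% and 0.0205% of all genes tested, so 0 calls in lists of this size is the usual result. An unadjusted limma p below 0.05 was found for 7 of the 62 and 4 of the 59. Over all genes it was found for 1546 of 16246 in muscle and 1386 of 19543 in testis. Of 7 genes of the fructose 6-phosphate step, 0 were called between the genotypes in muscle, and their median log2 difference was -0.25 against -0.04 for all genes. Tigar, a phosphatase of fructose 2,6-bisphosphate, had 2511, 1930 and 1658 normalised counts in mutant muscle D, F and G, against 3013, 3154 and 3308 in wild-type A to C. All mutant values of Tigar were below all wild-type values, as for 8.85% of the genes tested, with a log2 difference of -0.66 (SE 0.16). Pfkm, the muscle phosphofructokinase, had 63425, 45154 and 34143 in mutant D, F and G, against 63689, 68689 and 72901 in wild-type A to C. Mutant D was at the level of wild-type A, and the log2 difference was -0.57 (SE 0.27).

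Ratios within a library set Pfkfb3 against these partners. Per length, Pfkfb3 was 0.0761, 0.0715 and 0.112 times Pfkm in mutant muscle D, F and G, against 0.0845, 0.130 and 0.100 times in wild-type A to C, and these ratios overlapped. The ratios of Pfkfb3 to Tigar overlapped too, at 1.83 to 2.53 in mutant muscle and 1.96 to 3.10 in wild-type muscle. The ratio of Pfkfb3 to Pfkfb1 did not overlap, at 7.74 to 8.47 in mutant muscle and 10.5 to 12.5 in wild-type muscle, while that to Pfkfb4 did, at 6.92 to 10.6 and 8.67 to 14.9. All these ratios contain the Pfkfb3 muscle values that chose the family, so they are a description only.

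The remaining genes of the step had overlapping muscle groups. Pfkl and Pfkp, the liver and platelet phosphofructokinases, differed by 0.30 (SE 0.27) and 0.31 (SE 0.19) on the log2 scale, and Gpi1, the isomerase that supplies fructose 6-phosphate, by -0.25 (SE 0.20). Fbp2, the muscle fructose bisphosphatase, differed by 0.20 (SE 0.23). Fbp1, the liver form, was scarce in muscle and differed by -0.99 (SE 0.46), with 68.4, 14.3 and 32.1 normalised counts in mutant D, F and G, against 54.6, 63.8 and 75.7 in wild-type A to C. Fbp1 was far higher in testis, at 6269 ± 54.5 in wild-type testis (SD, n = 3), and F and G were also the muscle libraries with the lowest spermatid sums; the part of those transcripts in its muscle values was not tested. In testis 6 of the 7 genes were tested and limma called 0 of them, beside 0.0205% of all genes tested. Fbp1 alone had an unadjusted p below 0.05, at 0.13 higher on the log2 scale in the libraries labelled mutant (limma adjusted p = 0.700).

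**Figure D4:**
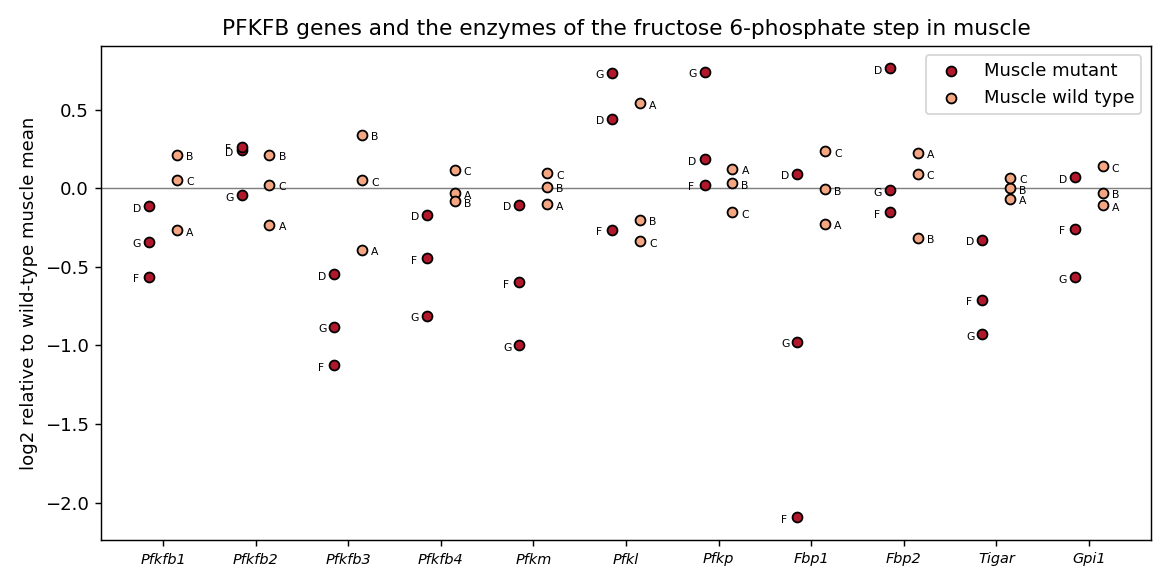
Level of each PFKFB gene and of the 7 enzymes of the fructose 6-phosphate step in the 6 muscle libraries, as log2(normalised count + 1) minus the mean of the 3 wild-type libraries (vertical axis), with letters for the mice. Mutant D lay nearest to the wild-type libraries for Pfkfb3, Pfkfb4, Pfkm and Tigar, and F or G lay lowest.

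Between the tissues the step had a muscle set and a testis set. In both tissue comparisons limma called all 7 genes, 5 higher and 2 lower in muscle, beside 37.3% higher and 50.6% lower of all genes in wild-type mice, with Pfkm, Tigar, Fbp2, Gpi1 and Pfkl higher in muscle and Fbp1 and Pfkp higher in testis. In wild-type mice the log2 differences were 4.96 for Pfkm, 3.91 for Tigar, 5.88 for Fbp2 and 1.15 for Gpi1, and -6.59 for Fbp1 and -2.82 for Pfkp. Pfkl was the smallest, at 0.63 (SE 0.22, limma adjusted p = 0.0250). Pfkfb3 and Pfkfb1 thus sat on the side of Pfkm, Tigar and Fbp2, and Pfkfb2 on the side of Fbp1 and Pfkp.

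Among the kinases that act on PFKFB proteins, the 7 AMP-activated kinase subunits and 9 other kinases had no gene called between the genotypes in either tissue. The shares of all genes called were 0.0369% in muscle and 0.0205% in testis. Prkab2, a regulatory subunit of AMP-activated kinase, had 6202, 4437 and 3174 normalised counts in mutant muscle D, F and G, against 6528, 6605 and 6812 in wild-type A to C. Its log2 difference in muscle was -0.58 (SE 0.21), and no mutant value reached a wild-type one, as for 8.85% of the genes tested. Between the tissues, 5 AMP-activated kinase subunits were higher and 1 lower in muscle in both comparisons, beside 37.3% and 50.6% of all genes in wild-type mice and 36.3% and 49.7% in the libraries labelled mutant. By p the first in wild-type mice were Prkab2 (log2 difference 4.33, limma adjusted p = 1.06e-09) and the catalytic subunit Prkaa2 (6.51, limma adjusted p = 1.42e-08), while the subunit Prkag3 had the larger difference of 8.44 (limma adjusted p = 8.9e-06). Of the other kinases, 6 were higher and 3 lower in muscle in both, among them Mapkapk2 (3.77 in wild-type mice, limma adjusted p = 3.17e-09) and Akt2 (2.22, limma adjusted p = 1.47e-08).

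Of the 3 adaptors of ubiquitin ligases that are known to mark Pfkfb3 protein for breakdown, none was called between the genotypes. The shares of all genes called were 0.0369% in muscle and 0.0205% in testis. In wild-type mice Fbxw11 was higher in muscle than in testis, at a log2 difference of 1.72 (limma adjusted p = 2.04e-07), and Fzr1 was lower, at -1.82 (limma adjusted p = 2.13e-07). Btrc was lower in mutant muscle than in testis labelled mutant, at -1.79 (limma adjusted p = 2.26e-06).

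The hypoxia genes gave no call between the genotypes either, 0 of 8 for the factor system and 0 of 17 for its targets in muscle, and 0 of 8 and 0 of 15 in testis. Of all genes tested, only 0.0369% were called in muscle and 0.0205% in testis, so 0 calls among so few genes is the usual result. Their muscle medians were -0.13 and -0.01 on the log2 scale, against -0.04 for all genes. Egln3, an oxygen-sensing hydroxylase, had the smallest p of the factor system in muscle. It had 356, 331 and 317 normalised counts in mutant muscle D, F and G, against 248, 251 and 173 in wild-type A to C. Every mutant value was above every wild-type one, as for 830 of the 16246 genes tested. The target Vegfa was also higher in every mutant muscle library, at 4179 to 4627 against 3697 to 3905 in wild-type muscle. Hif1an, of the factor system, was lower in every mutant one, at 1867 to 2995 against 3152 to 3394. All mutant values were below all wild-type values for 8.85% of the genes tested. In testis Egln3 differed by -0.55 (SE 0.25, limma adjusted p = 0.703). Slc2a1, a glucose transporter, was the target with the smallest p in muscle, at -0.35 (SE 0.19). Between the tissues, 14 of 17 targets were higher and 3 lower in wild-type muscle than in wild-type testis, with Pgk1 at 5.10 and Bnip3 at 4.45, and 12 and 3 of 16 in the mutant libraries, with Vegfa at 5.57 and Pgk1 at 5.06. Of all genes, 37.3% were called higher and 50.6% lower in the first comparison, and 36.3% and 49.7% in the second.

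The 11 genes of the response to glucose and insulin gave 0 calls in both genotype comparisons. The shares of all genes called were 0.0369% in muscle and 0.0205% in testis. In muscle their median log2 difference was -0.34, from -0.92 for Irs2, an adaptor of the insulin receptor, to -0.02 for Srebf1, a lipid synthesis regulator. The value of Srebf1 is nearer to 0 than that of the median gene, -0.04. Irs2 had 473, 299 and 234 normalised counts in mutant muscle D, F and G, against 607, 729 and 506 in wild-type A to C. All its mutant values were below all wild-type values, as for 8.85% of the genes tested. Hk2, the insulin-responsive hexokinase of muscle, had 5157, 3912 and 4137 in the mutants, against 5185, 5965 and 5531 in the wild types, with D just below A. The insulin-responsive glucose transporter Slc2a4 overlapped in muscle and was 0.89 higher on the log2 scale in testis labelled mutant (SE 0.42, limma adjusted p = 0.705). In testis it had 71.6, 80.4 and 77.3 normalised counts in D, E and F labelled mutant, against 47.7, 16.7 and 82.7 in wild-type A to C. The muscle-fibre sum, with 8 of 8 genes higher by mean in the libraries labelled mutant (median log2 difference 2.63), was 0.619%, 0.552% and 0.573% of the wild-type muscle mean in D, E and F, against 0.263%, 0.00687% and 0.627% in A to C, and its part in Slc2a4 was not tested. Between the tissues 9 of the 11 were called higher and 2 lower in muscle in both comparisons, beside the same shares of all genes (37.3% and 50.6%, and 36.3% and 49.7%), with Hk2 at 3.48 and Hk1, a hexokinase, at -5.66 in wild-type mice.

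The genes whose pattern was most like that of Pfkfb3 over the 6 muscle libraries were Tnfrsf19, Zfp605, Vwa3b, Teddm2 and Angel1. Likeness was the root-mean-square difference in log2(normalised count + 1), each gene centred on its mean, among 11168 genes with a mean of at least 50. It was 0.156 for Tnfrsf19, 0.177 for Zfp605, 0.181 for Vwa3b, 0.184 for Teddm2 and 0.185 for Angel1, beside a root-mean-square spread of 0.51 for Pfkfb3 itself. Tnfrsf19 had 270, 149 and 184 normalised counts in mutant muscle D, F and G, against 303, 485 and 307 in wild-type A to C, with B highest and F lowest as for Pfkfb3. Tnfrsf19, Zfp605 and Teddm2 were higher in muscle than in testis. Vwa3b and Angel1 were far higher in testis, at 3506 to 3816 against 43.8 to 101 in muscle and 3661 to 4138 against 124 to 272. The part of testis transcripts in their muscle values was not tested. Over all 12 libraries and 12802 genes the nearest were Lrig1, Zfand5 and Six4 for Pfkfb1, Sin3b, Tpst1 and Ankzf1 for Pfkfb2, Lrig1, Ywhag and Crim1 for Pfkfb3, and Mbd1, Uba1 and Eef2 for Pfkfb4. Lrig1 was nearest to both Pfkfb1 (0.151) and Pfkfb3 (0.234), with 1319 to 1931 normalised counts in mutant muscle, 1814 to 2220 in wild-type muscle and 92.7 to 114 in testis. These orders rest on the same libraries that gave the PFKFB values. They describe likeness in pattern across libraries only, not in level, since each gene was centred on its mean.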

How the data were processed

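Per the submitters' processing notes, the tools were DESeq2 1.46.0, fastp 0.23.4, HTSeq 0.11.2, HISAT2 2.1.0 and Picard 1.119 on the build GRCm38.p4, with no roles given. The labels' protocols state about 20 mg of powdered tissue, an RQN above 7.2, polyA selection and paired reads of 150 bases. The authors deposited a signal table of normalised counts (reads divided by 1 size factor per library) and a table of regularised log2 (rlog) values for 27384 of the 47730 features. Dividing each library's values by the value of 1 read gave whole numbers for 100% of them to within 0.01, and these recovered reads give the depth. In testis D labelled mutant, 26 values had been turned into dates and were treated as missing, none of a member. Size factors normalise all libraries together, so a level depends on what else a tissue expresses.

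The members and gene lists were chosen with earlier results of these data known. Differences in log2(normalised count + 1) were tested with limma 3.58.1 in R 4.3.3 (eBayes with a trend, two-sided), on genes with at least 10 normalised counts in at least 3 of the 6 libraries compared. The Benjamini-Hochberg adjustment ran over all genes tested. A permutation test of 3 libraries against 3 cannot go below 0.1. The scripts were tested on simulated data. Lists were described by counts and medians. Genes named were the members, Bckdk, NeoR and the fructose 6-phosphate step; per other list and comparison up to 2 called genes, or the gene with the smallest p; and those nearest in pattern. The muscle values of Vegfa, Hif1an, Hk2, Slc2a4 and Srebf1, and Prkag3 in wild-type mice, were named after they were seen. Lengths and positions came from GENCODE M21 (47310 features matched) and promoters from RefSeq (GRCm38.p6).

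Settings also tried were a pseudocount of 0.5 or 8, genes unfiltered or filtered at a mean of 50, TMM or median-of-ratios scaling, rlog values, edgeR 4.0.16 and DESeq2 1.42.0 on the recovered reads, all 12 libraries in 1 model, mouse as a block, each library left out and, added after the data were examined, the high-islet libraries left out. Per the file headers mice A, B, C, D and F gave both tissues, which pairs the tissue comparisons; deviations from group means correlated at -0.009, 0.005, 0.002, -0.017 and -0.017 across genes. Replicate numbers in the labels could not be tied to the columns, and mutant and wild-type mice differ, so no block entered the genotype comparisons.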

Additional observations from a re-analysis of the deposited data

Results flagged for a closer look

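Pfkfb4 was lower in all 3 mutant muscle libraries than in all wild-type ones, with a log2 difference of -0.4751, and higher in all 3 testis libraries labelled mutant than in all wild-type ones, at 0.0643. Prkab2, a subunit of AMP-activated kinase, showed the same opposite ordering, at -0.5832 in muscle and 0.1286 in testis. What drew attention in each case is that all mutant values lay below the wild-type values in muscle, and all values labelled mutant lay above them in testis. For Pfkfb4 the testis groups were only 0.02 apart at their edges on the log2 scale. Its testis difference was 0.034 with TMM scaling (limma adjusted p = 0.965), and the median testis gene differed by 0.034 before that scaling. The difference between the tissues was not tested. In muscle 8.85% of the genes tested had all mutant values below all wild-type values, and in testis 9.72% had all values labelled mutant above all wild-type values.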

How the results depend on the processing

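In muscle, limma called 6 genes, against 43 with all 12 libraries in 1 model, 34 with DESeq2, 14 with no filter on low values, and 3 to 497 when 1 library was left out (497 without mutant D, 3 without mutant F, 10 without wild-type B). Members called in muscle were 0, against 1 with DESeq2 and 0 to 1 when 1 library was left out, in each case Pfkfb3. The muscle log2 difference of Pfkfb3 stayed between -1.05 and -0.55 over 17 alternatives, and Pfkfb4 moved to -0.1693 without mutants F and G. In testis, 4 genes were called, against 2 with rlog values, 10 with DESeq2, 1 each with a mean of at least 50, median-of-ratios scaling, a pseudocount of 0.5, TMM and without wild-type A and B, and 1 to 6 when 1 library was left out. The testis sign turned for Pfkfb2 at -0.01688 with TMM, -0.02 with median-of-ratios scaling, -0.02492 with edgeR, -0.02256 with DESeq2 and -0.02786 without A and B. It turned for Pfkfb3 at -0.001156 with median-of-ratios scaling, -0.004626 with edgeR, -0.002151 with DESeq2 and -0.01885 without A and B, and for Pfkfb1 at -0.02484 without A and B. With 1 testis library left out, Pfkfb2 ranged from -0.01715 to 0.04936 and Pfkfb3 from -0.02016 to 0.08164. The cause of these turns was not tested. With mouse as a replicate block, the wild-type tissue comparison called 17403 genes and 4 members and the mutant one, from mice D and F only, 11681 genes and 3 members, so it changed no member's call. With 3 libraries a group, differences of the size seen for Pfkfb1 and Pfkfb2 in muscle lie within the spread between libraries, and Pfkfb1 in testis rests on 36.2 to 53.0 normalised counts a library.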
